A study of Mus musculus with 12 samples.

Results

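The 10 genes examined encode the subunits of the DREAM complex and its relatives: the pocket protein genes Rb1, Rbl1 and Rbl2, the repressor E2F genes E2f4 and E2f5, the genes Lin9, Lin37, Lin52 and Lin54 of the MuvB core, and the kinase gene Dyrk1a. They were matched by symbol, and all 10 were found among the 23337 gene symbols of the count table. RNA sequencing was done in 12 libraries of NU1, a line of normal mouse urothelial cells that became immortal by serial passaging in culture. The libraries formed 4 groups of 3, with 1 library of each group in each of experiments 5, 7 and 9. Proliferating control cells carried the non-targeting hairpin shNT and are labelled WT, and proliferating knockdown cells carried the hairpin sh4 and are labelled Stag2-KD. Quiescent control and quiescent knockdown cells carried the same hairpins, had grown to confluence and had then received 1 µM rosiglitazone, an activator of the nuclear receptor PPAR gamma, with 0.5 µM erlotinib, a blocker of the EGF receptor kinase. They are labelled day 7 of differentiation. All groups came from 1 cell line, all had been through lentiviral delivery of a hairpin, and the knockdown rests on 1 hairpin. Effects of confluence, of either drug and of growth arrest cannot be told apart in the quiescent groups, nor can fewer cells expressing a gene and less RNA per cell.

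DREAM is a repressor of cell-cycle genes in resting cells. A pocket protein, p130 from Rbl2 or p107 from Rbl1, joins E2F4 or E2F5 with their DP partners to the MuvB core, and the assembled complex sits at promoters through E2F sites and through the CHR element, which LIN54 reads. DYRK1A phosphorylates LIN52 and thereby favours assembly, while cyclin-dependent kinases that phosphorylate the pocket proteins take the complex apart. MuvB then joins B-MYB and FOXM1, which activate genes of mitosis. RB itself, from Rb1, is a pocket protein outside DREAM that restrains the activator E2Fs. The title of the series names DREAM and the maintenance of quiescence in the urothelium, so the comparisons address whether transcripts of the complex itself moved with quiescence or with loss of STAG2, a cohesin subunit.

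Some of these genes are controlled through E2F sites of their own, so the stretch before the start site is shown for the member that moved most and for a MuvB gene with the same kind of letters that did not pass any test. RefSeq promoter entries (build GRCm38.p6, 250 bases before to 50 after a start) matched 6 of the 10 genes, with 9 start sites. Rb1, E2f4, E2f5 and Lin9 had no entry and were not searched. Both strands were searched for the E2F letters TTTCCCGC, TTTGGCGC, TTTCGCGC and TTTGCCGC and for the CHR letters TTTGAA, and no match overlapped another. Of all 32851 promoter entries, 2.26% held the E2F letters and 17.9% the CHR letters. The 120 bases before each start are printed 5′ to 3′ on the gene's strand with the E2F letters in capitals.
Rbl1: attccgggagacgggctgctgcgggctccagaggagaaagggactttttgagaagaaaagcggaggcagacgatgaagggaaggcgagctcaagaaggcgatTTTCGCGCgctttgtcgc
Lin52: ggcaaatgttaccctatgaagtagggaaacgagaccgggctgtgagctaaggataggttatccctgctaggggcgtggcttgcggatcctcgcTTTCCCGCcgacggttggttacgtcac
The Rbl1 stretch lies on the minus strand at chr2:157204535-157204654 and carries its match at position -18, counted from the start site. The Lin52 stretch lies on the plus strand at chr12:84451388-84451507 and carries its match at position -27. The gene model of Lin52 given below starts at 84451422, inside this stretch. The match thus lies before the RefSeq start but within that gene model. Among the 6 genes searched, the only other E2F match was at position 10 of the third Dyrk1a start. CHR letters were matched in both Lin54 entries, at positions 41 and -162, in Lin37 at -197, in Rbl2 at -201 and in the third Dyrk1a start at -112. These matches are letters only and show no binding.

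Library totals ran from 14524429 to 21987539 counts, and the lowest count of any of the 10 genes in a library was 94, so all 10 passed the filter on low counts. Such counting error covers sampling only, since PCR copies are not independent molecules. Stag2, which checks the hairpin labels, had 113 to 145 CPM in proliferating control, 24.6 to 33.3 CPM in proliferating knockdown, 107.5 to 128 CPM in quiescent control and 9.43 to 15.3 CPM in quiescent knockdown libraries, where CPM is the reads of a gene in 1000000 TMM-scaled reads of its library. The groups with different hairpins did not overlap. The urothelial label was checked on 19 markers: the keratin gene Krt8 had group means of 4600 to 8909 CPM and Elf3 of 134 to 395 CPM, while Trp63 had no count in any library, and the 5 uroplakin genes had group means of at most 5.34 CPM. The summed markers of fibroblasts, smooth muscle, endothelium and immune cells reached 2.27, 0.835, 0.239 and 9.42 CPM in any library. The labels call the replicates experiments and give them batch numbers that coincide, and no more is said of how separate they were, so p-values measure the spread between these libraries.

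Levels of different genes were compared per length, as RPKM, the CPM per kilobase of the longest annotated transcript. In proliferating control cells E2f4, the repressor E2F with the most transcript in these cells, stood far above the other 9 genes at 63.2 RPKM ± 12.9 (SD, n = 3). Dyrk1a followed at 13.03 RPKM ± 1.23 (SD, n = 3), and these were the only steps at the top of the order without overlap between libraries. Rbl1, Lin37, Rb1, Rbl2, E2f5, Lin54 and Lin9 came next with means from 9.87 to 5.28 RPKM, and each overlapped its neighbour in the order. Lin52 was lowest at 3.43 RPKM ± 0.672 (SD, n = 3), with no overlap with Lin9. With lengths taken as the union of all exons Lin9 was below Lin52, at 2.30 and 2.50 RPKM, Lin37 was above Dyrk1a, at 9.12 and 9.10 RPKM, E2f5 was above Rbl1, at 8.41 and 8.01 RPKM, and the steps without overlap were those below E2f4 and above Lin52.

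In quiescent control cells Rbl2 stood above Rbl1. Rbl2 stood at rank 4 with 11.6 RPKM ± 0.917 (SD, n = 3), above Rb1 at 9.71 RPKM ± 0.0605 (SD, n = 3), with no overlap, but with exon-union lengths they overlapped, at 7.53 and 7.52 RPKM. Rbl1 had moved from rank 3 to rank 9, with 2.20 RPKM ± 0.208 (SD, n = 3), and overlapped Lin9, which was last at 2.19 RPKM ± 0.146 (SD, n = 3). With exon-union lengths Rbl1 went from rank 5 to rank 9 and did not overlap Lin9, at 1.78 and 0.955 RPKM. E2f4 stayed first at 39.6 RPKM ± 2.08 (SD, n = 3), and Lin37 and Dyrk1a followed at 13.3 and 13.2 RPKM, overlapping each other, which they did not with exon-union lengths (12.6 and 9.18 RPKM). In proliferating knockdown cells E2f4 was the only gene without overlap with its neighbour in the order, and with exon-union lengths Lin54 and Lin52 did not overlap either. In quiescent knockdown cells E2f4 was again first, at 40.2 RPKM ± 1.86 (SD, n = 3), and Lin9 last, at 2.24 RPKM ± 0.626 (SD, n = 3).

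**Figure D1:**
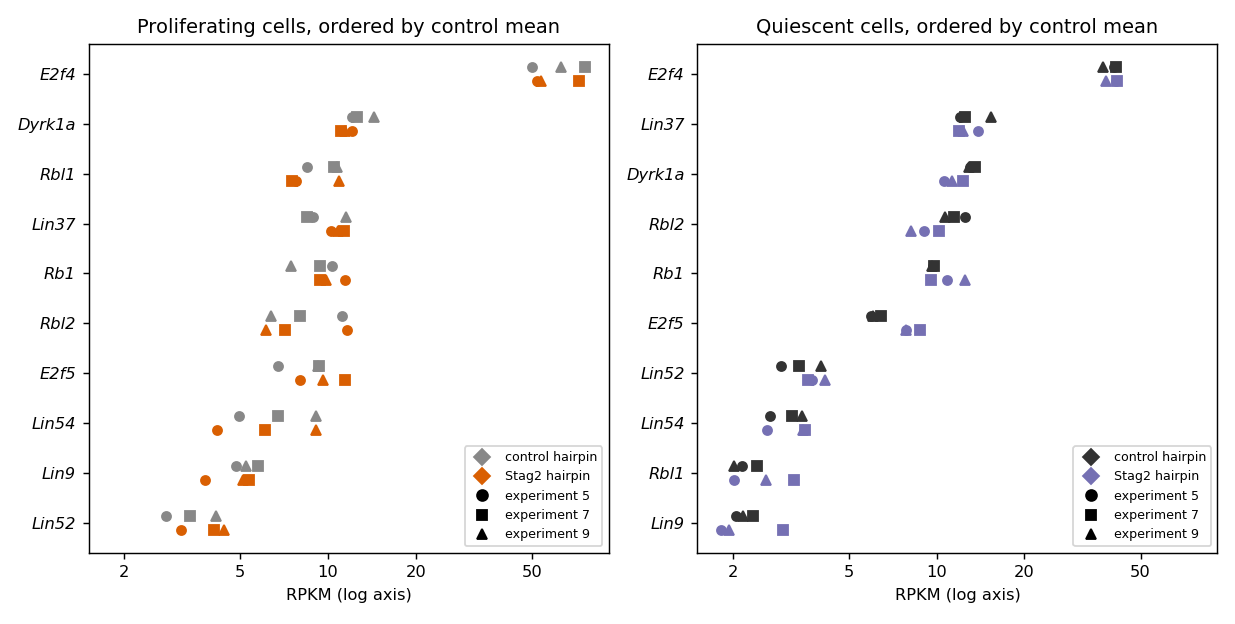
Per-length level (RPKM, log axis) of each gene in every library, for proliferating cells on the left and quiescent cells on the right, with the shape giving the experiment and the colour the hairpin; genes are ordered by the mean of the control libraries. E2f4 lies apart to the right in both panels, and Rbl1 goes from rank 3 in proliferating to rank 9 in quiescent control cells.

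With quiescence in control cells, 4 of the 10 genes fell and 0 rose at an adjusted p under 0.05. The 4 were Rbl1, Lin9, Lin54 and E2f4, a pocket protein gene, a pair of MuvB core genes and a repressor E2F gene. The transcripts that remained were 0.223 of the proliferating level for Rbl1, 0.415 for Lin9, 0.449 for Lin54 and 0.627 for E2f4. Over all 12406 genes tested, 20% were called, 11.7% lower and 8.33% higher, and the median log2 fold change was 0.00 over all genes and -0.22 over the 10. DESeq2 called 5 of the 10, the 4 and Lin37. The share that DESeq2 called over all genes was not counted, so its counts here and below have none beside them. With a replicate block, which adds a term for the experiment that all groups share, 7 of the 10 genes were called, since E2f5 fell and Rbl2 and Lin37 rose, and the share over all genes was 35.3%, 16.8% higher and 18.5% lower.

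**Figure D2:**
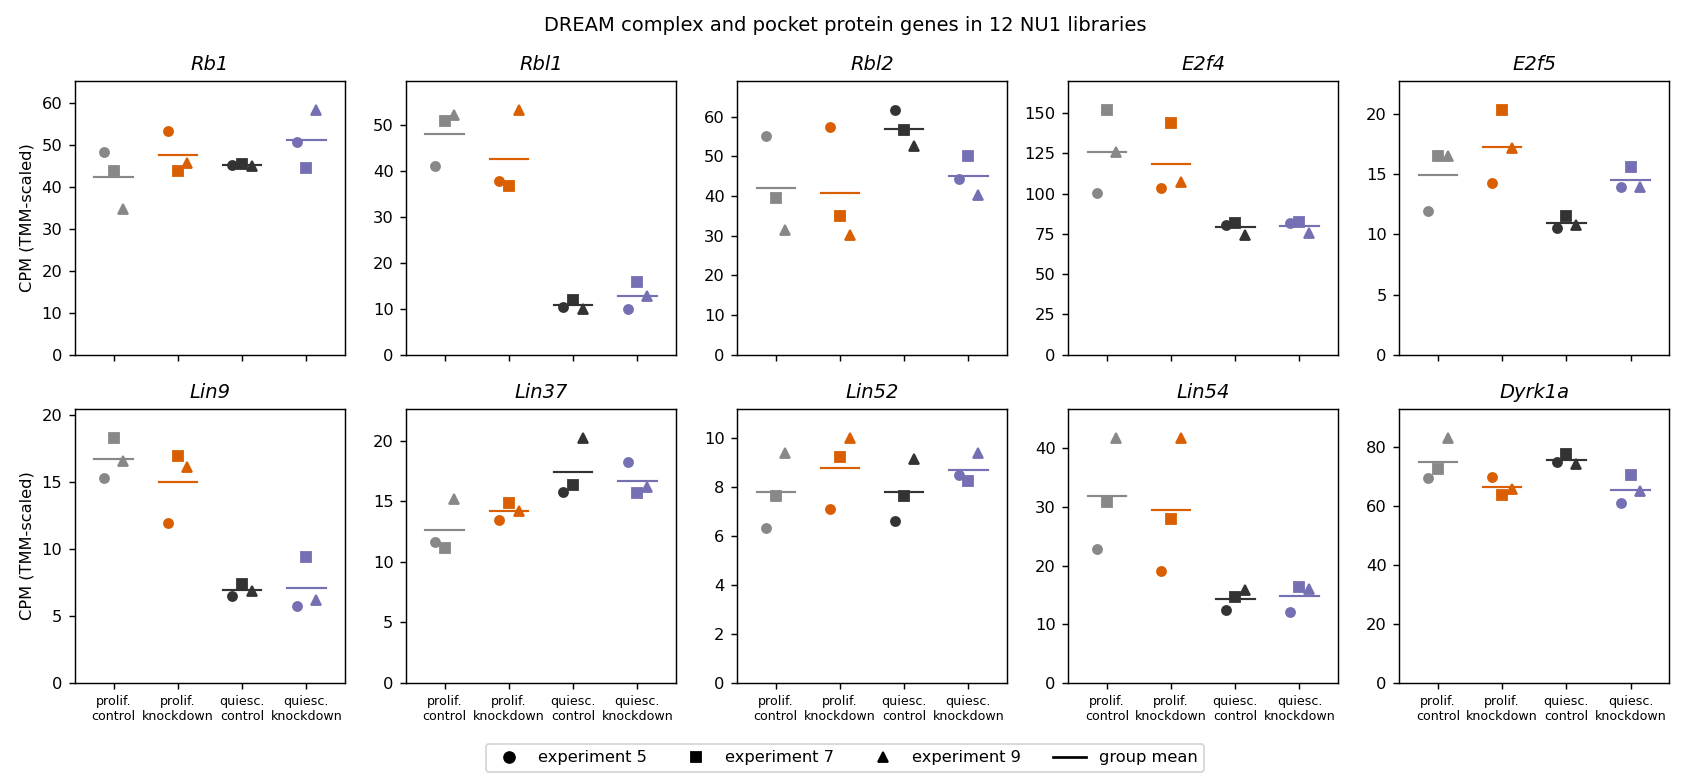
Level of each of the 10 genes in CPM (TMM-scaled) in the 12 libraries, by group, with the shape giving the experiment and the bar the group mean of 3 libraries. Rbl1, Lin9, Lin54 and E2f4 sit lower in both quiescent groups without overlap with the proliferating group of the same hairpin, and Lin52 and Dyrk1a sit at like levels in both states.

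Among the pocket proteins, Rbl1, the gene of p107 (chr2:157145893-157204534, GRCm38, minus strand), had 41.1, 50.8 and 52.1 CPM in proliferating control libraries of experiments 5, 7 and 9. In quiescent control libraries it had 10.4, 11.8 and 9.84 CPM. All 3 quiescent libraries were thus far below all 3 proliferating ones, and the log2 fold change was -2.17 (95% confidence interval -2.62 to -1.71, edgeR adjusted p 8.18e-05). Rbl2, the gene of p130 (chr8:91070057-91123844, plus strand), went the other way: it had 55.0, 39.5 and 31.3 CPM in proliferating and 61.6, 56.6 and 52.5 CPM in quiescent control libraries. The groups overlapped, because the proliferating library of experiment 5 was high, although the quiescent library was the higher one in each experiment. Its log2 fold change was 0.44 (-0.10 to 0.98, edgeR adjusted p 0.227), and with the replicate block it was 0.47 (edgeR adjusted p 0.0475). Aktip, on the opposite strand, shares 693 exon bases with Rbl2 and had a log2 fold change of 0.45 (edgeR adjusted p 0.0649); whether strand was used in counting is not given in the sources used here, so the part of Aktip reads in the Rbl2 count was not tested. Rb1, the gene of RB (chr14:73183673-73325822, minus strand), had 48.2, 43.8 and 34.7 CPM in proliferating and 45.3, 45.5 and 44.9 CPM in quiescent control libraries. Its groups overlapped, and its log2 fold change of 0.10 (-0.22 to 0.42, edgeR adjusted p 0.671) covers 0.

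Of the repressor E2F genes, E2f4 (chr8:105297663-105305370, plus strand) had 100.1, 152 and 126 CPM in proliferating and 80.8, 81.9 and 74.2 CPM in quiescent control libraries. The groups did not overlap, and the decrease was smallest in experiment 5, where the proliferating library was lowest. The log2 fold change was -0.67 (-1.03 to -0.31, edgeR adjusted p 0.0152). E2f5, the other repressor E2F that binds p130 (chr3:14578641-14606309, plus strand), had 11.9, 16.5 and 16.5 CPM in proliferating and 10.6, 11.5 and 10.8 CPM in quiescent control libraries, again without overlap. Its log2 fold change of -0.45 (-0.84 to -0.06) did not pass the threshold (edgeR adjusted p 0.0961), and with the replicate block it did (-0.44, edgeR adjusted p 0.0327).

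In the MuvB core, the genes of the 2 subunits LIN9 and LIN54 fell while those of LIN37 and LIN52 did not. Lin9, whose protein also links MuvB to B-MYB (chr1:180641150-180690694, plus strand), had 15.3, 18.2 and 16.5 CPM in proliferating and 6.49, 7.40 and 6.86 CPM in quiescent control libraries, a log2 fold change of -1.27 (-1.75 to -0.79, edgeR adjusted p 0.0025). The 3 experiments gave -1.22, -1.29 and -1.26 for it, the most even change of any called member. Lin54, the subunit that reads the CHR element (chr5:100441918-100500639, minus strand), had 22.8, 30.9 and 41.7 CPM in proliferating and 12.4, 14.7 and 15.8 CPM in quiescent control libraries. Experiment 5 was lowest and experiment 9 highest in both states, and the states did not overlap (log2 fold change -1.15, -1.78 to -0.52, edgeR adjusted p 0.0169). Lin37, a MuvB subunit needed for repression (chr7:30555441-30559838, minus strand), had 11.7, 11.1 and 15.2 CPM in proliferating and 15.8, 16.4 and 20.2 CPM in quiescent control libraries. It was the only 1 of the 10 genes whose quiescent libraries were all above its proliferating ones, a pattern that 17.1% of all genes showed, while 5 genes were lower without overlap, as were 18.5% of all genes. Its log2 fold change was 0.46 (0.10 to 0.83, edgeR adjusted p 0.0683), and with the replicate block it passed the threshold (0.47, edgeR adjusted p 0.0331), as it did by DESeq2 (0.47, adjusted p 0.0426). Lin52, the docking subunit for the pocket protein (chr12:84451422-84546145, plus strand), had 6.34, 7.62 and 9.38 CPM in proliferating and 6.62, 7.65 and 9.12 CPM in quiescent control libraries. Its values in the states lay side by side in every experiment, and the log2 fold change of 0.00 had an interval of -0.47 to 0.48 (edgeR adjusted p 0.991). The 2 genes whose promoter letters are printed above were picked by their changes, so their contrast says nothing on a link between letters and change.

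The kinase gene Dyrk1a (chr16:94570010-94695517, plus strand) had 69.6, 72.6 and 83.0 CPM in proliferating and 75.1, 77.8 and 74.4 CPM in quiescent control libraries. The groups overlapped, and its interval was the narrowest of the 10, with a log2 fold change of 0.01 (-0.21 to 0.24, edgeR adjusted p 0.945). Of the 4 calls, those of E2f4 and Lin54 were lost in some fits that left out 1 library, all without the replicate block. With all libraries and the block, E2f4 had an edgeR adjusted p of 0.00313 and Lin54 of 0.000539. Without the block and without proliferating control of experiment 7, E2f4 had an edgeR adjusted p of 0.0681. It had 0.0508 without quiescent control of experiment 5 and 0.0556 without that of experiment 9. Lin54 had 0.068 without proliferating control of experiment 9 and 0.0723 without quiescent control of experiment 5. Without quiescent control of experiment 5 the calls were 2, Rbl1 and Lin9, and the share over all genes was then 11.7%. Single libraries also made calls: without proliferating control of experiment 5, E2f5 was called (log2 fold change -0.59, edgeR adjusted p 0.0339), and without that of experiment 9, Lin37 was (0.61, edgeR adjusted p 0.0364).

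**Figure D3:**
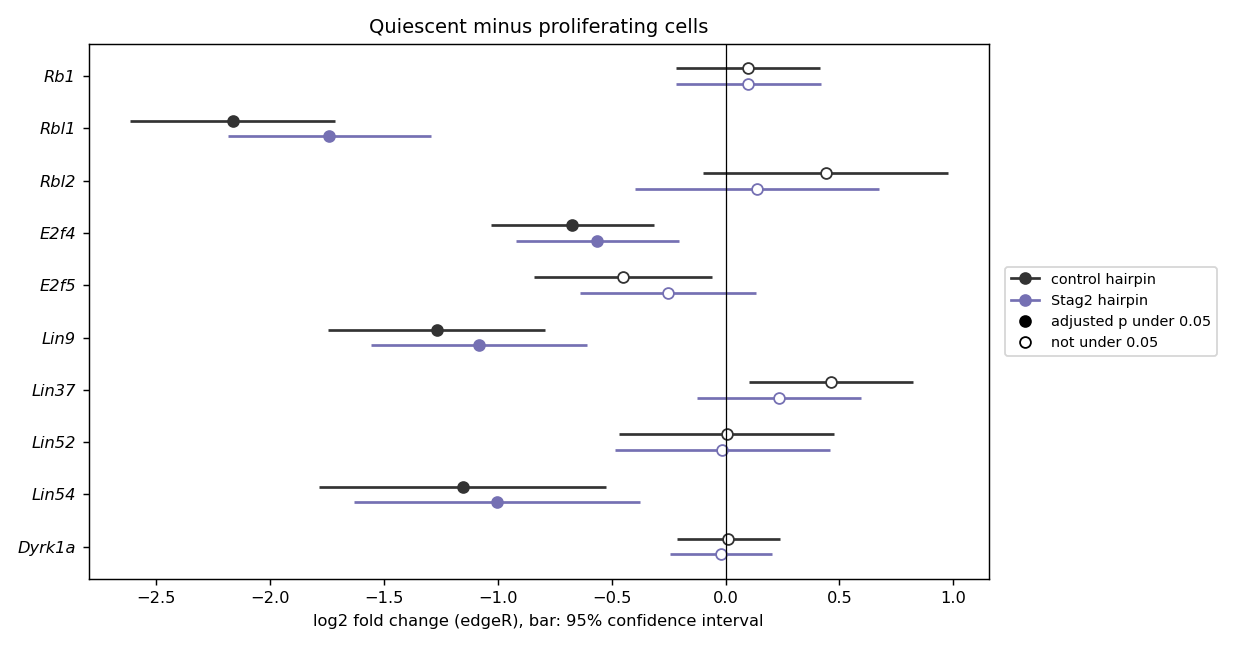
Log2 fold change of quiescent against proliferating cells for each gene, with 95% confidence intervals, in control cells (dark) and knockdown cells (purple); filled points have an edgeR adjusted p under 0.05. Rbl1, Lin9, Lin54 and E2f4 are filled on both rows, and the intervals of the hairpins overlap for every gene.

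With quiescence in knockdown cells the same 4 genes, Rbl1, Lin9, Lin54 and E2f4, fell and 0 rose, where 18.4% of all genes were called, 10.8% lower and 7.59% higher. With the replicate block the 4 were called again, and the share over all genes was 33%, 17.2% lower and 15.9% higher. Rbl1 went from 37.8, 36.7 and 53.1 CPM in proliferating to 9.84, 15.7 and 12.7 CPM in quiescent knockdown libraries, a log2 fold change of -1.74 (-2.18 to -1.30, edgeR adjusted p 0.000499). The least decrease was in experiment 7, at -1.21, where the quiescent library was the highest of its group. Lin9 went from 11.9, 16.9 and 16.1 CPM to 5.76, 9.36 and 6.15 CPM, a log2 fold change of -1.08 (-1.56 to -0.61, edgeR adjusted p 0.00625). Lin54 went from 19.1, 27.9 and 41.7 CPM to 12.1, 16.3 and 15.9 CPM, a log2 fold change of -1.004 (-1.63 to -0.38, edgeR adjusted p 0.0327). Its proliferating library of experiment 9 stood well above the rest. E2f4 went from 104, 144 and 107.2 CPM to 81.8, 82.5 and 75.8 CPM, a log2 fold change of -0.56 (-0.92 to -0.21, edgeR adjusted p 0.0347). None of these 4 genes had overlapping groups, and 19.1% of all genes were lower without overlap.

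The other 6 genes were not called in knockdown cells. Rbl2 had 57.3, 35.0 and 30.2 CPM in proliferating and 44.4, 50.2 and 40.1 CPM in quiescent knockdown libraries, so that experiment 5 had its lower value in quiescent cells (log2 fold change 0.14, -0.40 to 0.67, edgeR adjusted p 0.734). Lin37 had 13.5, 14.9 and 14.2 CPM and then 18.2, 15.7 and 16.2 CPM, with no overlap, as 18.1% of all genes had in that direction, and a log2 fold change of 0.23 (-0.13 to 0.59, edgeR adjusted p 0.349). E2f5, Rb1, Lin52 and Dyrk1a had log2 fold changes of -0.25, 0.10, -0.01 and -0.02. Calls for E2f4 and Lin54 were again lost without single libraries: without the proliferating knockdown library of experiment 7, or without any 1 of the 3 quiescent knockdown libraries, the calls were 2, with adjusted p in edgeR of 0.0713 to 0.141 for E2f4 and 0.0608 to 0.114 for Lin54. Without the proliferating knockdown library of experiment 9, Lin54 had 0.133, without quiescent control of experiment 5 or 7 E2f4 had 0.0538 or 0.0524, and with only the libraries of the comparison Lin54 had 0.0524. None of these fits had the replicate block, and the share called over all genes is not given for them. With all libraries and the block, E2f4 had an edgeR adjusted p of 0.00853 and Lin54 of 0.00148.

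The balance of the transcripts of the DREAM pocket proteins can be read within a library as the log2 ratio of Rbl2 to Rbl1, from which the library scaling cancels. Aktip reads in the Rbl2 count, if any, would not cancel, and the proteins were not measured. It was 0.42, -0.36 and -0.73 in proliferating control and 2.55, 2.25 and 2.40 in quiescent control libraries of experiments 5, 7 and 9. In knockdown cells it was 0.60, -0.07 and -0.81 when proliferating and 2.16, 1.66 and 1.66 when quiescent. In proliferating cells the libraries thus lay on both sides of equal reads, and Rbl2 reads were the more abundant in every quiescent library. Quiescent minus proliferating, the mean over both hairpins was 2.27, with an exact two-sided permutation p of 0.005 for state labels permuted within hairpin, the smallest that 400 assignments can give (0.01 adjusted over the 2 ratio tests). With the replicate block, as sign flips of the differences within experiments, the exact p was 0.0313, the smallest that 64 flips can give, and 0.0625 adjusted over the 2 tests, which does not pass the threshold. Every one of the 6 within-experiment differences was positive, from 1.56 to 3.14. They come from 3 experiments, each with both hairpins. The flips treat them as independent and the permutation does not use the experiment, so both p-values can overstate the replication.

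Knockdown minus control, the mean over both states was -0.22 (exact two-sided permutation p 0.455, adjusted p 0.455). In quiescent cells alone the ratio was 2.40 ± 0.15 (SD, n = 3) in control and 1.83 ± 0.289 (SD, n = 3) in knockdown libraries, with no overlap and within-experiment differences of -0.39, -0.59 and -0.75. In proliferating cells the differences were 0.18, 0.29 and -0.08. Whether the shift of the ratio differs between the states was not tested.

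**Figure D4:**
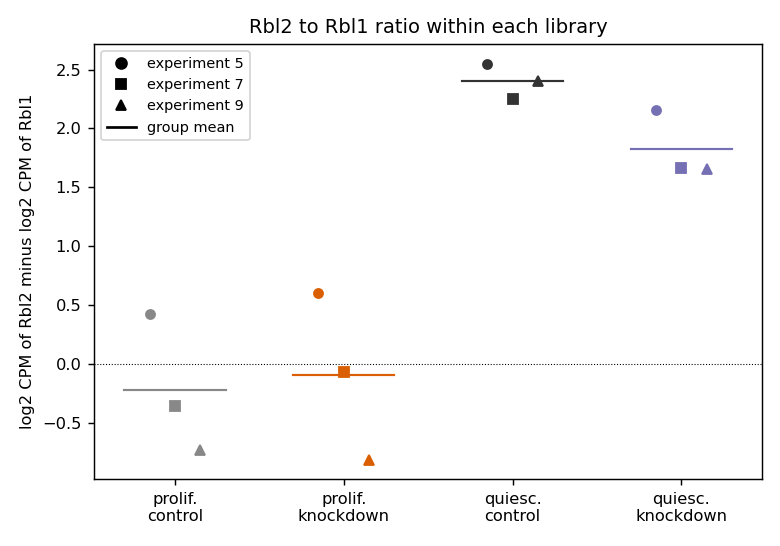
Log2 CPM of Rbl2 minus log2 CPM of Rbl1 in each library (y axis), by group, with the shape giving the experiment, the bar the group mean of 3 libraries and the dotted line equal reads. Proliferating libraries lie on both sides of the line, from -0.81 to 0.60, and quiescent libraries lie between 1.66 and 2.55, the knockdown below the control.

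The knockdown called none of the 10 genes in proliferating cells by edgeR or by DESeq2, and 0 had an unadjusted p under 0.05. Over all genes 0.0242% were called, and 1.84% had an unadjusted p under 0.05. No gene of the 10 had groups without overlap, and 5.31% of all genes did. The log2 fold changes ran from -0.18 for Dyrk1a to 0.20 for E2f5, with a median of -0.06, against 0.00 over all genes. The intervals bound what could have been missed: Dyrk1a -0.40 to 0.05, Rb1 -0.14 to 0.49, E2f4 -0.45 to 0.27, Lin37 -0.20 to 0.53, E2f5 -0.18 to 0.59, Rbl1 -0.60 to 0.25, Lin9 -0.62 to 0.31, Lin52 -0.30 to 0.65, Rbl2 -0.58 to 0.50 and Lin54 -0.72 to 0.51. The narrowest was that of the kinase gene and the widest that of Lin54.

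In quiescent cells the knockdown called 0 of the 10 genes by edgeR, without and with the replicate block, and 0 by DESeq2, which was fitted without the block. Over all genes edgeR called 0.435% without the block and 3.55% with it. At an unadjusted p under 0.05 there was 1 gene, E2f5, against 12% of all genes. The 3 genes E2f5, Rbl2 and Dyrk1a, had knockdown and control libraries that did not overlap, 1 higher and 2 lower, and 19.1% of all genes had such groups, 10.2% higher and 8.85% lower. E2f5 had 10.6, 11.5 and 10.8 CPM in control and 13.96, 15.6 and 13.9 CPM in knockdown libraries of these experiments. Its differences were even, at 0.40, 0.43 and 0.37 on the log2 scale, and the log2 fold change was 0.40 (0.01 to 0.79, edgeR adjusted p 0.40, with the block 0.134). The proliferating control libraries had 11.9, 16.5 and 16.5 CPM, on both sides of the quiescent knockdown values. Rbl2 had 61.6, 56.6 and 52.5 CPM in control and 44.4, 50.2 and 40.1 CPM in knockdown libraries; its log2 fold change was -0.34 (-0.88 to 0.19, edgeR adjusted p 0.654, with the block 0.283). Dyrk1a had 75.1, 77.8 and 74.4 CPM in control and 61.1, 70.7 and 65.1 CPM in knockdown libraries; its log2 fold change was -0.21 (-0.43 to 0.02, edgeR adjusted p 0.467, with the block 0.276). For these 3 genes the direction was the same in 3 of 3 experiments, and none of the changes passed the test. The summed urothelial markers were 12386 to 19421 CPM in quiescent control and 21490 to 23416 CPM in quiescent knockdown libraries. Krt8 and Krt18 had the highest means of the list, and these went from 5903 to 8909 CPM and from 4279 to 6127 CPM. The list was split, since Cdh1 went from 1921 to 1303 CPM and Pparg from 6.12 to 2.16 CPM. The part of the markers in the values of the 3 genes was not tested.

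For the remaining 7 genes the groups overlapped in quiescent cells. Rbl1 had 10.4, 11.8 and 9.84 CPM in control and 9.84, 15.7 and 12.7 CPM in knockdown libraries, higher in experiments 7 and 9 only (log2 fold change 0.25, -0.19 to 0.69, edgeR adjusted p 0.701). Rb1 and Lin52 had log2 fold changes of 0.17 (-0.14 to 0.49) and 0.16 (-0.32 to 0.63). Those of E2f4, Lin9, Lin54 and Lin37 were nearest to 0, at 0.02 (-0.34 to 0.38), 0.03 (-0.44 to 0.51), 0.05 (-0.58 to 0.67) and -0.07 (-0.42 to 0.29). E2f4 was the tightest match between hairpins, with differences of 0.02, 0.01 and 0.03 in the experiments.

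**Figure D5:**
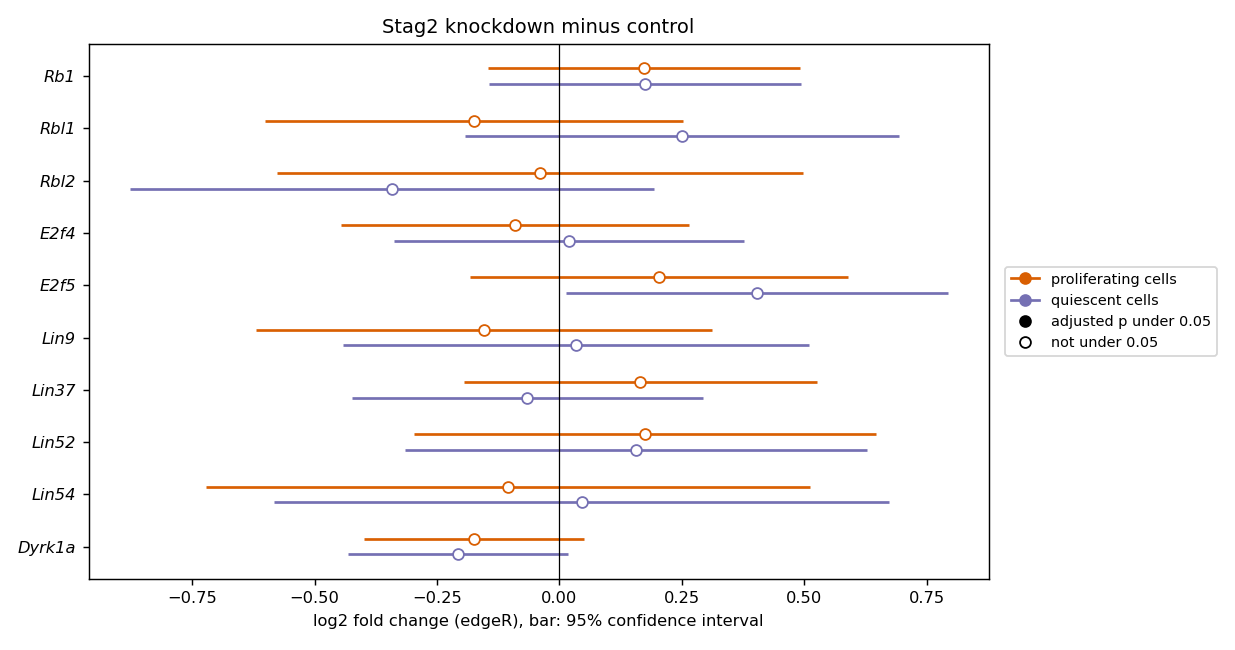
Log2 fold change of Stag2 knockdown against control for each gene, with 95% confidence intervals, in proliferating (orange) and quiescent (purple) cells; open points have an edgeR adjusted p of 0.05 or more. All points are open, and of the 20 intervals the one of E2f5 in quiescent cells, 0.01 to 0.79, leaves out 0.

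The interaction, which subtracts the effect of the hairpin in proliferating from that in quiescent cells, called 0 of the 10 genes by edgeR or by DESeq2, 0 at an unadjusted p under 0.05, and 0% of all genes (1.77% at an unadjusted p under 0.05). Its largest values were 0.43 for Rbl1 (-0.19 to 1.04) and -0.30 for Rbl2 (-1.06 to 0.46), both with an edgeR adjusted p of 0.9997. The 3 experiments gave 0.04, 0.88 and 0.33 for Rbl1, and -0.53, 0.00 and -0.33 for Rbl2. Experiment 7 thus gave the largest value for one gene and none for the other. The Rbl1 value of 0.43 is also the difference between its quiescence effects, -1.74 in knockdown and -2.17 in control cells, and it did not pass the test. Stag2 itself was left at 0.208 of control in proliferating and 0.100 in quiescent cells. Cell state and depth of knockdown therefore cannot be told apart in the interaction.

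Of the 3 partner subunit genes, 1 fell with quiescence in control cells: Tfdp1, the main DP partner of the E2Fs, had 159.6 to 264 CPM in proliferating and 100.3 to 113 CPM in quiescent control libraries, a log2 fold change of -1.07 (edgeR adjusted p 0.00445). Rbbp4, the histone-binding MuvB subunit, had a log2 fold change of -0.40 (edgeR adjusted p 0.148, with the replicate block 0.0247), and Tfdp2 of -0.23 (edgeR adjusted p 0.473). The activating partners of MuvB both fell much further than any of the 10 genes. Mybl2, the gene of B-MYB, went from 25.3 to 40.8 CPM in proliferating to 0.897 to 1.59 CPM in quiescent control libraries (log2 fold change -4.68, edgeR adjusted p 0.000132), and Foxm1 had a log2 fold change of -3.71 (edgeR adjusted p 0.000494). In quiescent knockdown libraries Mybl2 had 1.27 to 5.37 CPM and Foxm1 5.35 to 13.8 CPM, with log2 fold changes of 1.27 (edgeR adjusted p 0.306) and 0.81 (edgeR adjusted p 0.537) against control.

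Around the 10 genes, the other E2F genes fell in 4 of 6 cases with quiescence in control cells (6 of 6 with the replicate block): E2f1 at -2.07, E2f7 at -4.00, E2f8 at -4.80 and E2f2 at -5.94 on the log2 scale. Over all genes edgeR called 20% in that comparison, 11.7% lower and 8.33% higher. With the block it called 35.3%, 18.5% lower and 16.8% higher. Of 8 genes of the cyclins and kinases that act on pocket proteins, 5 fell and 1 rose, and of 7 CDK inhibitor genes 2 rose, Cdkn1a and Cdkn1c, and 1 fell, Cdkn2c. Of the 4 kinase and adaptor genes around Dyrk1a and of the 4 corepressor genes, edgeR called 0, 1 of each had an unadjusted p under 0.05, and DESeq2 called 1 of each. With the replicate block edgeR called 1 of each: Dyrk1b, a kinase gene related to Dyrk1a, was higher (edgeR adjusted p 0.00334, without the block 0.0827) and Hdac1, a histone deacetylase gene, was lower (edgeR adjusted p 0.0101, without the block 0.0521). The lists of known cell-cycle targets of DREAM moved nearly whole: 55 of 55 G1/S genes fell, with a median log2 fold change of -2.45, and 67 of 69 G2/M genes fell and 1, Pttg1, the securin gene, named after its value was seen, rose, with a median of -4.30, against a median of 0.00 over all genes. The lists were chosen with earlier results of these data known, so their fall is no independent test of DREAM targets. After knockdown in quiescent cells the medians of these lists were 0.40 and 0.81, against 0.02 over all genes. By edgeR, 1 of 55 G1/S genes, Mcm5, and 0 of 69 G2/M genes were called there, 22 and 6 had an unadjusted p under 0.05, DESeq2 called 6 and 1, and with the replicate block edgeR called 8 and 2. Over all genes the edgeR shares in that comparison were 0.435% called, 12% at an unadjusted p under 0.05 and 3.55% called with the block. The G1/S counts of 22 and 8 of 55 were above the last 2 shares, and the G2/M counts of 6 and 2 of 69 were below them. Of the cyclins and kinases 1 was called there, Ccne2, at 3.01 (edgeR adjusted p 0.0053), and with the replicate block also Ccnd3, at 0.79 (edgeR adjusted p 0.0343). Of the CDK inhibitors 0 were called, with 2 at an unadjusted p under 0.05 and 1 by DESeq2, and with the block Cdkn2b was lower, at -0.77 (edgeR adjusted p 0.029). Dyrk1b, Ccnd3 and Cdkn2b are named after their values were seen. Of the other E2F genes 0 were called, with 3 at an unadjusted p under 0.05, 2 by DESeq2 and 3, E2f1, E2f2 and E2f8, with the replicate block.

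Rbl1 was the member with the largest decrease, and the genes of nearest pattern to it were sought by the root mean square difference of mean-centred log2 CPM over the 12 libraries. They were BC055324, as the table names it, with a difference of 0.147, Incenp, a subunit of the chromosomal passenger complex, with 0.161, and Atad5, which unloads PCNA from DNA, with 0.162, while the median over all genes was 1.05. Their log2 fold changes with quiescence in control cells were -2.00, -2.16 and -1.85.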

How the data were processed

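The authors deposited 1 table of raw read counts, with 12 library columns and no normalization. The submitters' processing notes name Bowtie, TopHat, HTSeq and DESeq2 and the build mm10, without roles or versions; which annotation was used, and whether strand was, is not given in the sources used here. Per the labels' protocols, a stranded kit was applied to the polyA fraction. The main test was edgeR 4.0.16 (quasi-likelihood, R 4.3.3) over all 12 libraries, with a mean for each of 4 groups, TMM scaling and the filterByExpr filter at a minimum count of 10, which 12406 genes passed; p-values were adjusted over these by Benjamini-Hochberg, with a threshold of 0.05. Intervals are 95% confidence intervals of that fit. Log2 CPM used a prior count of 2. The code was tested on simulated data.

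The experiment number is shared by 1 library of each group and coincides with the batch in the labels, which is where the pairing comes from; deviations of libraries with the same number correlated across genes with a mean r of 0.526 (18 pairs, 0.225 to 0.789). Blocked values are given beside named genes and counts where a call changed. No replicate pair was identical, and the chi-square per degree of freedom between replicates was 29.7 to 81.5. Alternatives tried were DESeq2 1.42.0, size factors by median of ratios, the replicate block, no filter, a mean count of at least 50, only the libraries of a comparison, leaving out each library, a prior count of 0.5 and exon-union lengths. Gene models came from GENCODE M21 (GRCm38, the assembly of mm10). Genes named besides the 10 are partner subunits and activating partners, at most 4 called genes of each other pathway list and 2 of each target list by adjusted p, and the 3 genes of nearest pattern to the called member with the largest decrease (no member rose by the test). The members and lists were chosen with earlier results of these data known.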

Additional observations from a re-analysis of the deposited data

How the results depend on the processing

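Rbl1 and Lin9 kept their decrease and their call with quiescence in control and in knockdown cells under each of the 18 alternatives, with log2 fold changes of -2.27 to -2.10 and -1.33 to -1.20 in control cells. Counts of called genes for both knockdown effects and the interaction stayed 0. With the replicate block 7 genes were called with quiescence in control cells in place of 4; it changed no other call of the 10 genes in the edgeR fits. Leaving out 1 library gave counts of 2 to 5 with quiescence in control and 2 to 4 in knockdown cells. Apart from the fit without quiescent control of experiment 5, the share over all genes is not given for these fits. The counts therefore cannot be read as a result about the 10 genes. The Rbl2 to Rbl1 ratio kept its direction for state (2.09 to 2.45) and for knockdown (-0.39 to -0.042) in fits without 1 library. With the replicate block the exact sign-flip p over 6 pairs from 3 experiments was 0.0313 and 0.281, or 0.0625 and 0.281 adjusted over both. Exon-union lengths moved the proliferating control RPKM of Rb1 to 7.02, Rbl1 to 8.01, Rbl2 to 5.55, Lin9 to 2.30, Lin52 to 2.50 and Dyrk1a to 9.10. Signs turned only among values that were not called. With the replicate block Lin52 had 0.0019 with quiescence in knockdown cells, and the interaction of Rb1 was -0.0093 with no filter and -0.0021 with a mean count of at least 50. Without single libraries the ranges that cross 0 were, for knockdown in proliferating cells, Rbl2 -0.37 to 0.21, E2f4 -0.26 to 0.065 and Lin54 -0.45 to 0.14. For knockdown in quiescent cells they were E2f4 -0.025 to 0.057, Lin9 -0.22 to 0.16, Lin37 -0.14 to 0.051 and Lin54 -0.054 to 0.17. For quiescence they were Rb1 -0.027 to 0.20, Lin52 -0.12 to 0.16 and Dyrk1a -0.040 to 0.090 in control cells, and Rb1 -0.0030 to 0.20, Rbl2 -0.042 to 0.46, Lin52 -0.15 to 0.088 and Dyrk1a -0.065 to 0.029 in knockdown cells. For the interaction they were Rb1 -0.11 to 0.12, Rbl2 -0.55 to 0.022, E2f4 -0.048 to 0.28, Lin9 -0.060 to 0.32, Lin52 -0.18 to 0.11, Lin54 -0.094 to 0.48 and Dyrk1a -0.11 to 0.019. Median-of-ratios scaling moved the median of all genes by at most 0.0096. The cause of these shifts was not tested.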

Other observations

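The 10 genes varied less between experiments in quiescent than in proliferating control cells. The SD of log2 CPM over the 3 experiments was larger in proliferating control libraries for 10 of 10 genes, and for 59.6% of all genes tested. Its median over the 10 genes was 0.26 in proliferating and 0.10 in quiescent control libraries, against 0.26 and 0.21 over all genes. Rb1 was the extreme, with 0.24 and 0.0090. With the Stag2 hairpin the SD was larger in proliferating libraries for 5 of 10 genes and for 58.3% of all genes. This measure was chosen after the values were seen and was not tested.

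In proliferating cells Rbl2 and Lin54 ranked the experiments in opposite order under both hairpins. Rbl2 was highest in experiment 5 and lowest in experiment 9, and Lin54 was lowest in experiment 5 and highest in experiment 9. Lin52 had the order of Lin54 in proliferating libraries of both hairpins and in quiescent control libraries. These orders were not planned comparisons and were not tested. Libraries of the same experiment had correlated deviations, so the hairpins are not independent repeats.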
